A study of Mus musculus with 11 samples.

Results

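Matrix metalloproteinases (MMPs), ADAMTS proteases with the related ADAMTS-like proteins, and tissue inhibitors of metalloproteinases (TIMPs) were followed through the differentiation of mouse white fat preadipocytes. The genes were taken by symbol, as every coding gene whose name begins with Mmp, Adamts or Timp and a number, or with Adamtsl. This gave 51 of 21452 coding genes, namely 23 MMP, 19 ADAMTS, 5 ADAMTS-like and 4 TIMP genes, by a rule on names alone. RNA-seq had been carried out in im-scWAT, a preadipocyte line derived from mouse inguinal subcutaneous white fat and immortalized with large T antigen. The time course held 6 untransduced samples, with 2 at day 0 and 1 each at days 4 and 8 with or without rosiglitazone (ROS, a PPARγ ligand, 0.5 μM). After day 0 the cultures received an inducing cocktail of indomethacin, dexamethasone, isobutylmethylxanthine, insulin and T3, and the samples differed in whether ROS was part of it. The 2 samples of day 0 carry the labels ROS plus and ROS minus, although ROS entered only with the cocktail, and they were used as a pair of preadipocyte samples. A second set of 5 samples, all at day 8 with ROS, carried a retroviral shRNA against mouse Jmjd1a together with human JMJD1A from a retrovirus. The human protein was wild type in 2 samples (WT A and WT B) and S265A, S265D or S265D-H1120Y in 1 sample each. JMJD1A is an H3K9 demethylase, S265 is its PKA phosphorylation site, and the H1120Y change removes its catalytic activity. The labels and the published methods differ on whether ROS was withdrawn on day 7. All samples came from 1 immortalized line, so the spread within a pair may be that of cultures or of libraries only.

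MMPs are zinc endopeptidases that are made as inactive precursors and cut collagens, laminins, fibronectin and other matrix proteins, and a membrane-type subgroup works at the cell surface. ADAMTS proteases are secreted and act mainly on large proteoglycans and on the propeptides of fibrillar collagens, while ADAMTS-like proteins share their ancillary domains but lack the protease. TIMPs bind to the active site of these enzymes and block it, and in fat the balance of pericellular collagen cutting, in particular by the membrane-type enzyme MMP14, is known to be needed for adipocytes to enlarge within their collagen network.

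Expression is given as FPKM, a fragment density scaled to the length of exon and to the depth of the library, so that levels may be set against each other between genes. Of the 51 genes, 8 were listed at 0 in all 11 samples in their representative transcript, 8 more stayed under an FPKM of 0.1, 7 reached 0.1 but not 1, and 28 reached 1 (54.9%, against 57.2% of all coding genes). All these classes rest on the representative transcript. For Adamts13, classed under 0.1, some other coding transcripts were listed between 0.20 and 0.41 in all 11 samples. Of the 8 genes listed at 0, 6 lie in 1 cluster of 10 MMP genes on chromosome 9 (mm9, chr9:7272514-7699416, 427 kb), in which only Mmp3 and Mmp13 reached an FPKM of 1.

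The promoters of this cluster are shown because 7 of them hold the same short element, while their genes ranged from listed at 0 to expressed. The element was not found in the promoters at hand for other members. Promoter sequences (RefSeq, GRCm38.p6) were at hand for 36 of the 51 genes, as 250 bases before to 50 bases after an annotated start. The AP-1 element TGAGTCA, searched on both strands, was present in 7 of these 36 genes (7 of their 39 promoters) and in 5.2% of 32851 promoters of all genes. All 7 lie in the chromosome 9 cluster. The 100 bases before the annotated start are printed 5′ to 3′ in the direction of transcription, with the AP-1 letters in capitals. Mmp13 (chr9:7272414-7272513, plus strand), Mmp3 (chr9:7445722-7445821, plus) and Mmp12 (chr9:7347274-7347373, plus) are followed by Mmp1a (chr9:7464041-7464140, plus), Mmp1b (chr9:7388027-7388126, minus), Mmp10 (chr9:7502242-7502341, plus) and Mmp7 (chr9:7691990-7692089, plus).
Mmp13: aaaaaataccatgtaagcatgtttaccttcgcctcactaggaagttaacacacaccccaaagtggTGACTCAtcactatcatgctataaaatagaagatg
Mmp3: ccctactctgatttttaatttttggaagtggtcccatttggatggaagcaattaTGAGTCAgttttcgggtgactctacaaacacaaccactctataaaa
Mmp12: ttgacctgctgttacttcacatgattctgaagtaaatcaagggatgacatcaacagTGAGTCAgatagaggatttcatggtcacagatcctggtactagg
Mmp1a: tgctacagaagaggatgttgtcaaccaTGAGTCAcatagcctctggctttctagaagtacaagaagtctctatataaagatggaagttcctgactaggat
Mmp1b: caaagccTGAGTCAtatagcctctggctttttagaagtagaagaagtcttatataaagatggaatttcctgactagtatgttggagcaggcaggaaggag
Mmp10: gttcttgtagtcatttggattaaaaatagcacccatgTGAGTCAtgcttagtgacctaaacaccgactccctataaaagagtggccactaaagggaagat
Mmp7: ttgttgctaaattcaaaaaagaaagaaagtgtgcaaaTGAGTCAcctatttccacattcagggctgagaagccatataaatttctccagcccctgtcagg
The first letter of the element lies 35 bases before the start in Mmp13, on the opposite strand, and 46 bases before it in Mmp3, on the sense strand. In the representative transcript Mmp3 and Mmp13 were the only genes of these 7 above 0, and the other 5 were listed at 0 in all 11 samples. Another transcript of Mmp12 was listed above 0 in 9 of the 11 samples, at 0.00965 at most. The TATA letters TATAAA, on the sense strand, were found in 11 of the 36 genes (11 of their 39 promoters) and in 8.32% of all promoters. A DR1 element of the PPAR type, AGGTCA repeated after 1 base of any kind, searched on both strands, was found in 0 of the 36 genes and in 0.0396% of all promoters, which says only that these exact letters are not in this window.

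The samples were of like depth, from 3.1 to 5.29 Gb of mapped bases, and a transcript with 2 kb of exon covered by 100 bases would be listed at an FPKM between 0.00944 and 0.0161, so levels near 0.01 rest on very little. All 8 adipocyte markers rose in limma over days 4 and 8 (28.5% of all genes did), and 7 of them were above day 0 in all 4 later samples. The exception was Lep (leptin), at 0 in both samples of day 0 and in both ROS cultures, and at 0.0196 and 0.252 at days 4 and 8 without ROS. The summed FPKM of the 8 was 269 and 271 in the pair of day 0 and from 9450 to 35700 later, most of it from Fabp4. The 7 preadipocyte or fibroblast markers did not move as 1 group. In limma 5 fell (29.3% of all genes did), whereas Pdgfra and Fap rose 2.87-fold and 2.38-fold. Their sum, most of it from Ly6a, was 554 and 622 at day 0 and between 140 and 572 later, and the part of all these markers in the changes below was not tested. The leukocyte markers Ptprc, Itgam, Emr1 and Fcgr1, the endothelial markers Cdh5 and Tie1, the muscle factors Myod1 and Myog and the epithelial markers Epcam and Cdh1 were under 0.1 in all 11 samples, which is 4 of 9, 2 of 5, 2 of 4 and 2 of 4 of these lists. Other genes of the lists were expressed, with highest values of 21.7 for Cd68, 5.56 for Cd14, 4.44 for S100a8, 3.47 for Pecam1, 12.2 for Des and 19.3 for Acta1. The myeloid list summed to 8.09 and 8.24 at day 0, from 2.42 to 7.59 at days 4 and 8 and from 9.05 to 23.5 in the transduced samples, and the muscle list to 0.66 and 0.807, from 4.11 to 11.9 and from 9.0 to 31.6. The endothelial list summed to at most 4.02 and the epithelial list to at most 0.839, both in transduced samples. Fewer cells of a type and less RNA per cell cannot be told apart in such bulk samples.

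Differentiation was accompanied by a large loss of the inhibitors, with a mixed change of the proteases. Timp1, Timp2 and Timp3 fell, Timp4 rose from near 0, the membrane-type protease Mmp14 fell, and Mmp19, Mmp28, Adamts9, Adamts12 and Adamts15 rose. Days 4 and 8 (4 samples) were compared with day 0 (2 samples), by the ratio of mean FPKM with a 2-fold limit in genes reaching 0.1, and by limma on log2(FPKM + 0.1). Of 35 genes that reached 0.1, 12 were at least 2-fold higher (34.3%, against 19.3% of the 14190 genes tested) and 15 at least 2-fold lower (42.9%, against 15.4%). The median log2 ratio was -0.15 for these 35 genes and -0.031 for all genes with a ratio. In limma, 9 rose (28.5% of all genes did) and 17 fell (29.3% of all genes did) at an adjusted p under 0.05, where the error comes from both samples of day 0. Without 1 or the other of these that error had to come from the WT pair and 0 passed in limma (0.0% of all genes), although without the first sample 11 were still 2-fold higher (20.2% of all genes) and 14 lower (14.8%), and without the second 13 (19.4%) and 15 (15.9%). All 4 later samples lay below both samples of day 0 in 15 of the 35 genes (32.2% of all genes) and above them in 8 (30.7%). With the cultures without ROS alone, 12 genes were 2-fold higher (19.1% of all genes) and 14 lower (12.8%), and with the ROS cultures alone 8 (18.2%) and 15 (19.7%). Ratios of FPKM + 1 left 5 genes 2-fold higher (10.4% of all genes) and 11 lower (8.15%). Limma over all 11 samples called 12 genes in either direction in place of 26 (20.5% of all genes).

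**Figure D1:**
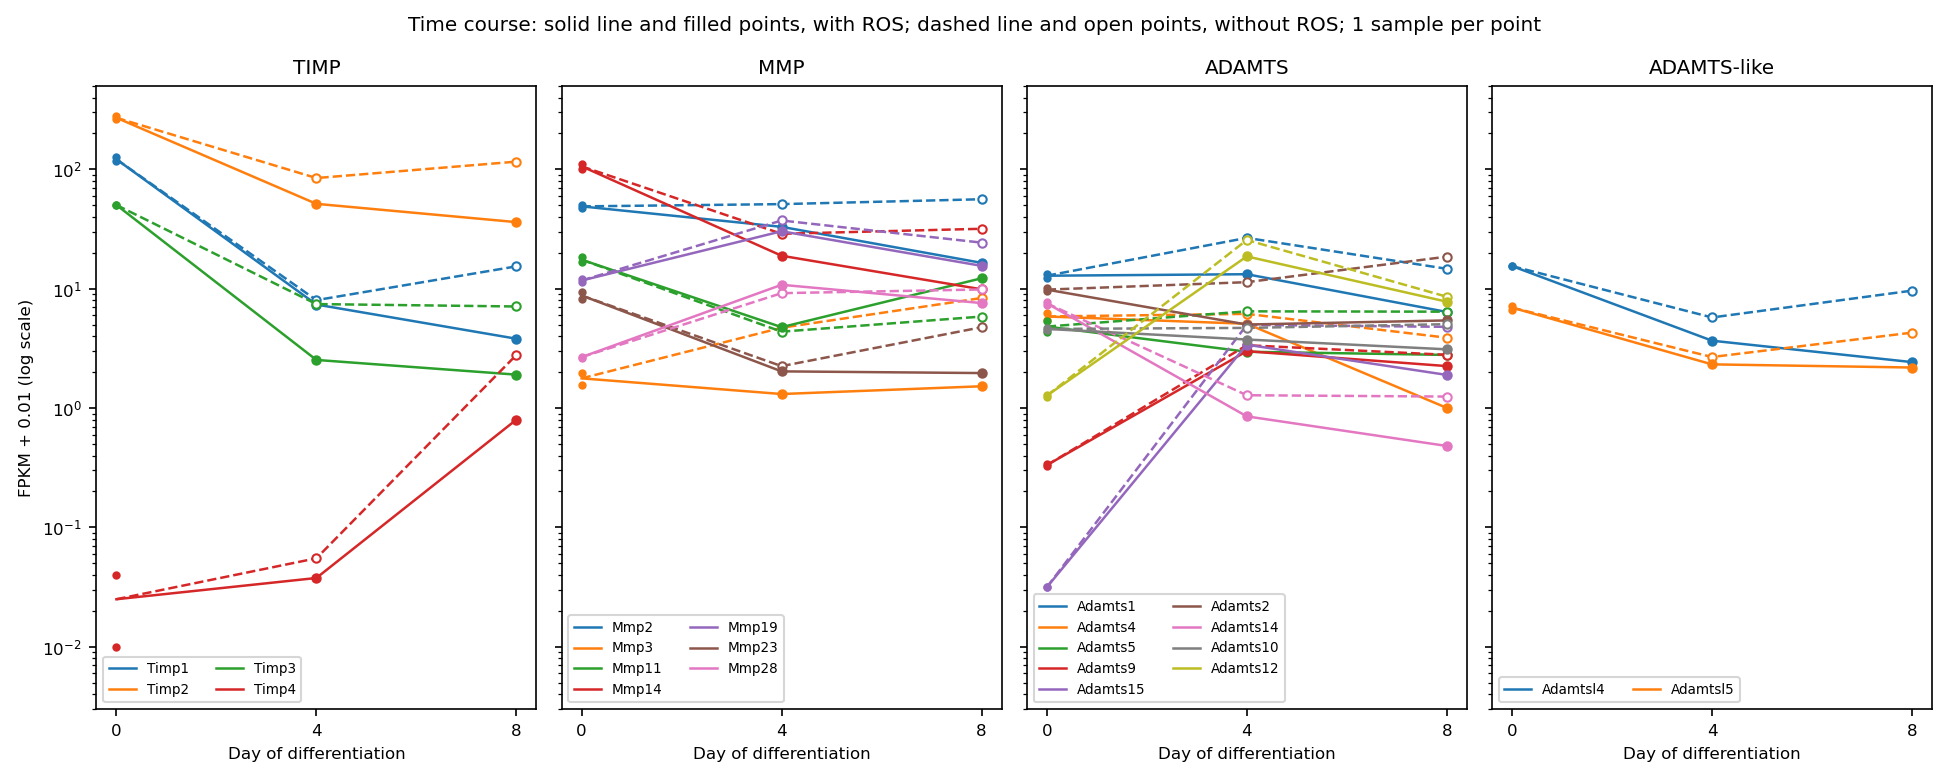
FPKM (plus 0.01, log axis) against day of differentiation for the 4 Timp genes and the other members that reached an FPKM of 5, by class, with 1 sample per point and lines from the mean of the pair of day 0. Timp1, Timp2 and Timp3 drop between day 0 and day 4 while Timp4 appears only at day 8, and at day 8 the filled points (with ROS) lie below the open points (without ROS) for most genes.

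Timp2, which besides blocking MMPs takes part in the activation of pro-MMP2 by MMP14, was the most abundant of the 51 genes at day 0. Its FPKM was 264 and 278 at day 0, 84.6 and 51.5 at day 4 without and with ROS, and 116 and 36.1 at day 8. Every later value was under 0.5 times the lower sample of day 0, a mean 3.76-fold fall (log2 difference -2.05 ± 0.056 SE, adjusted p = 0.00898). Timp1, the secreted inhibitor that is typical of activated fibroblasts, had an FPKM of 117 and 126 at day 0, 8.01 and 7.36 at day 4 without and with ROS, and 15.4 and 3.80 at day 8. It showed the steepest fall of the abundant members, 14.1-fold (log2 difference -3.97 ± 0.067 SE, adjusted p = 0.00898). Timp3, the inhibitor that is held in the matrix and that also blocks ADAM17 and ADAMTS4 and ADAMTS5, went from 50.2 and 50.4 at day 0 to 7.43 and 2.52 at day 4 and to 7.09 and 1.90 at day 8, each without and with ROS. This was a 10.6-fold fall (log2 difference -3.62 ± 0.046 SE, adjusted p = 0.00898), and the groups did not overlap.

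Timp4, the member of the family known from heart and from fat, behaved in the opposite way and late. Its FPKM was 0.030 and 0 at day 0, 0.045 and 0.028 at day 4 without and with ROS, and 2.78 and 0.789 at day 8. Only the samples of day 8 stood clear of the others, and because 1 sample of day 0 is listed at 0 no fold against day 0 is given (adjusted p = 0.0183 over days 4 and 8 in limma). Timp4 (mm9, chr6:115195634-115201867, minus strand) lies within the span of Syn2, which is transcribed from the other strand, and 170 kb from Pparg. Syn2 moved with it, with an FPKM of 0.025 and 0.089 at day 0, 1.5 and 1.15 at day 4, and 25.9 and 11.7 at day 8 without and with ROS. The reads on the strand opposite to Timp4 were also highest at day 8, and the part of Syn2 in the Timp4 value was not tested. Timp1 and Timp3 likewise lie within Syn1 and Syn3, but these hosts stayed under an FPKM of 1 in all 11 samples.

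The sums over the classes show the size of this change, since FPKM is per length of exon. The TIMP genes made up 61.7% of the summed FPKM of the 51 genes in both samples of day 0, and from 26.9% to 38.2% at days 4 and 8. Their sum was 2.26 and 2.19 times that of the MMP genes at day 0, and 0.714 and 0.593 times at day 4 and 0.965 and 0.632 times at day 8, without and with ROS. The sum of the 19 ADAMTS genes was 53.6 and 51.4 at day 0 and lay above this at day 4 in both cultures, at 92.4 without and 57.2 with ROS. At day 8 it was 67.6 without ROS and 31.7 with ROS, on either side of day 0. All 4 later samples were thus below day 0 in the TIMP to MMP ratio, with no overlap. These sums are dominated by a few genes and describe transcripts, not the amount or activity of the proteins.

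**Figure D2:**
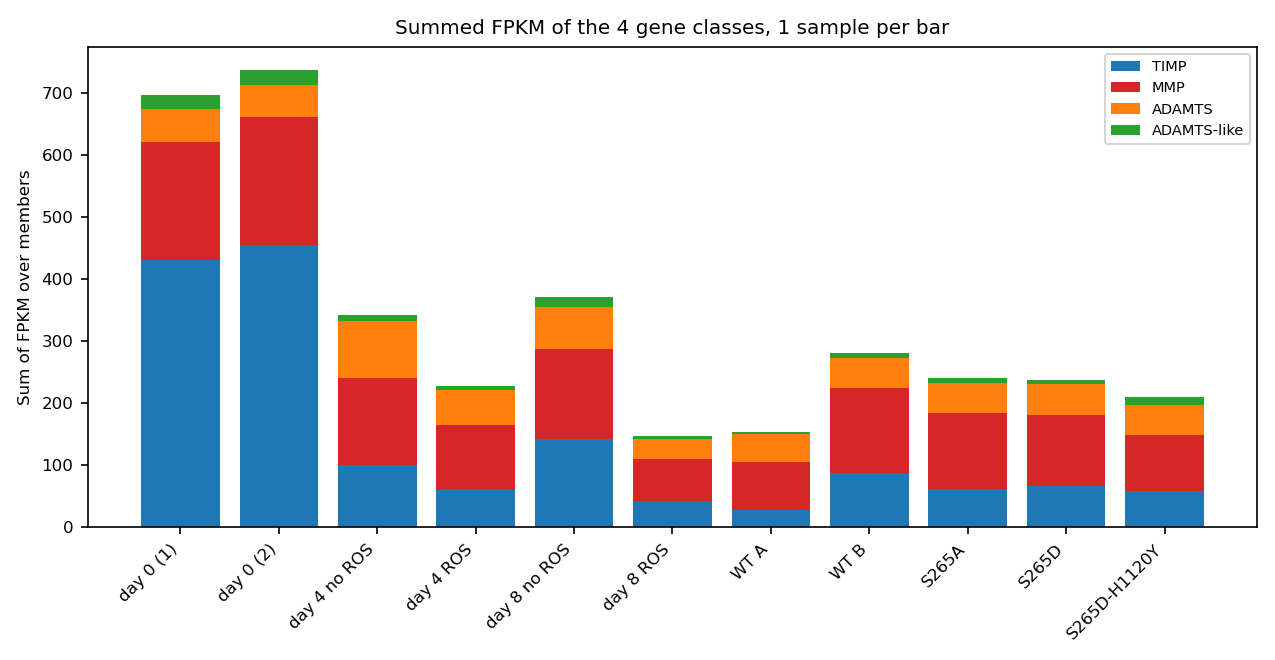
Sum of FPKM (linear axis) over the TIMP, MMP, ADAMTS and ADAMTS-like genes, stacked, with 1 bar per sample. The TIMP part is 430 and 455 at day 0 and between 27.3 and 141 in the other 9 samples.

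Among the membrane-type MMPs, Mmp14 carries nearly all of the expression. MMP14 is the cell-surface collagenase that also cuts pro-MMP2. Its FPKM was 101 and 111 at day 0, 28.9 and 18.9 at day 4 without and with ROS, and 31.8 and 9.88 at day 8, a 4.75-fold fall with all 4 later samples under the pair of day 0 (log2 difference -2.37 ± 0.073 SE, adjusted p = 0.00928). Mmp15 and Mmp17, of the same subgroup but much lower, rose. Mmp15 went from 0.258 and 0.320 at day 0 to between 0.732 and 1.66 (adjusted p = 0.0158), and Mmp17 from 0.177 and 0.190 to between 0.321 and 0.548 (adjusted p = 0.0136).

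The gelatinases cut denatured collagen and type IV collagen of basement membranes. Mmp2, the constitutive gelatinase of fibroblasts, had an FPKM of 47.5 and 50.4 at day 0, 51.2 and 33.0 at day 4 without and with ROS, and 56.2 and 16.5 at day 8. Only the ROS cultures lay under day 0, and both cultures without ROS lay above it, so that its fall in limma (-0.47 ± 0.058, adjusted p = 0.0296) is a mean over unlike values and its ratio of 0.8 stayed inside 2-fold. Mmp9, the inducible gelatinase, was low, with 0.346 and 0.478 at day 0, 0.398 and 0.582 at day 4 without and with ROS, and 2.41 and 0.380 at day 8. The sample of day 8 without ROS stood alone, and its mean ratio of 2.29 did not pass in limma (adjusted p = 0.0806).

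The stromelysins act on proteoglycans, laminin and the precursors of other MMPs. Mmp3 had an FPKM of 1.56 and 1.97 at day 0, and was higher in the cultures without ROS, at 4.70 on day 4 and 8.34 on day 8. With ROS it was 1.30 and 1.51, under both samples of day 0, so the mean ratio of 2.25 against day 0 came from the cultures without ROS and did not pass in limma (adjusted p = 0.0528). Mmp11, which was first described in the stroma around tumours and is secreted already active, went from 16.6 and 18.4 to 4.36 and 4.75 at day 4 and to 5.83 and 12.2 at day 8 without and with ROS. It fell (log2 difference -1.48 ± 0.077 SE, adjusted p = 0.012), least in the ROS culture of day 8.

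Of the MMPs outside these subgroups, Mmp19 and Mmp28 rose and Mmp23 fell. Mmp19, a secreted protease of basement membrane proteins, came next after Mmp2 among the MMPs at day 4 in both cultures. Its FPKM was 11.3 and 12.1 at day 0, 37.3 and 30.3 at day 4 without and with ROS, and 24.3 and 15.5 at day 8, a 2.3-fold rise with no overlap (log2 difference 1.12 ± 0.06 SE, adjusted p = 0.0122). Mmp28 (epilysin) went from 2.69 and 2.63 to 9.17 and 10.8 at day 4 and to 9.85 and 7.57 at day 8, a 3.51-fold rise with all 4 values above day 0 (adjusted p = 0.00898). Mmp23, an atypical membrane-bound member, went from 8.23 and 9.30 to 2.24 and 2.02 at day 4 and to 4.74 and 1.95 at day 8 without and with ROS, a 3.2-fold fall (adjusted p = 0.0116).

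The proteases of large proteoglycans such as versican and aggrecan differed in direction. Adamts15 was near 0 in both preadipocyte samples (0.021 and 0.022) and was 4.97 and 3.39 at day 4 and 4.78 and 1.89 at day 8, without and with ROS. This gave the largest rise of the 35 genes in limma (log2 difference 4.9 ± 0.046 SE, adjusted p = 0.00898), and a ratio to so low a level has little meaning. Adamts9 went from 0.315 and 0.330 at day 0 to 3.35 and 2.99 at day 4 and to 2.78 and 2.24 at day 8, an 8.81-fold rise (log2 difference 2.78 ± 0.051 SE, adjusted p = 0.00898). Adamts1, with 13.4 and 12.3 at day 0, ran from 6.38 to 26.7 later, on both sides of day 0 (adjusted p = 0.447). Adamts5, an aggrecanase, was 5.31 and 4.30 at day 0 and from 2.78 to 6.45 later (adjusted p = 0.423). Adamts4, the other aggrecanase, was 5.44 and 6.25 at day 0, 6.15 and 5.08 at day 4, and 3.88 and 0.993 at day 8 without and with ROS, and its mean fell by 0.78 on the log2 scale (adjusted p = 0.0286) with a ratio inside 2-fold.

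The other ADAMTS genes differed in direction too. Adamts12, a protease of cartilage oligomeric matrix protein, went from 1.29 and 1.23 at day 0 to 25.6 and 18.6 at day 4 and to 8.56 and 7.77 at day 8, without and with ROS. The 12.0-fold rise (log2 difference 3.31 ± 0.052 SE, adjusted p = 0.00898) was highest at day 4 in both cultures. The procollagen N-propeptidases, which trim fibrillar procollagens, did not move as 1 group. Adamts2 was 10.1 and 9.57 at day 0, 11.3 and 5.00 at day 4, and 18.6 and 5.41 at day 8 without and with ROS, again with the ROS cultures below and the others above day 0 (adjusted p = 0.116). Adamts14 fell 7.89-fold, from 7.36 and 7.71 to 1.27 and 0.842 at day 4 and to 1.24 and 0.471 at day 8 (log2 difference -2.94 ± 0.053 SE, adjusted p = 0.00898). Adamts6 and Adamts7 fell from between 1.91 and 3.32 at day 0 to between 0.142 and 1.30, while Adamts10, a protein of fibrillin microfibrils, stayed from 3.10 to 5.04 in all 6 samples (adjusted p = 0.106). Among the ADAMTS-like genes, Adamtsl4, which binds fibrillin, went from 15.4 and 15.6 to 5.73 and 3.66 at day 4 and to 9.63 and 2.42 at day 8 (2.89-fold fall, adjusted p = 0.00898). Adamtsl5 went from 6.65 and 7.21 to between 2.18 and 4.28 (2.43-fold fall, adjusted p = 0.0118).

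Day 8 was compared with day 4 over both cultures. Of 31 genes, 4 were at least 2-fold higher (7.75% of all genes) and 3 lower (3.07%), and in limma 0 passed, with a smallest adjusted p of 0.0903, and at an unadjusted p under 0.05 there were 9 higher (19.8% of all genes) and 13 lower (17.7%). The genes past 2-fold that reached an FPKM of 1 at either day were Timp4 and Mmp9 on the higher side and Adamts12 and Adamts4 on the lower side. For Mmp9, Timp1 and Timp2 such an average covers opposite moves, as each was higher at day 8 than at day 4 without ROS and lower with ROS. Timp3 was lower at day 8 in both cultures, with a mean ratio of 0.903.

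The ROS cultures had lower levels of most of these genes at day 8, proteases and inhibitors alike, and Mmp11 was the only one past 2-fold on the higher side. The comparison bears on beige against white differentiation and has 1 sample on each side, so it has no replicate check of its own. Of 31 genes reaching 0.1, 22 were at least 2-fold lower with ROS (71.0%, against 15.2% of 13587 genes) and 1 was higher (3.4% of all genes). The median log2 ratio was -1.37 over 30 of these genes, where all genes had -0.225. In limma, with the error again from day 0, 0 passed (smallest adjusted p = 0.0818), and at an unadjusted p under 0.05 there were 25 lower (25.1% of all genes) and 1 higher (7.72%). With ratios of FPKM + 1, 13 were 2-fold lower (4.45% of all genes) and 0 higher (1.43%). With a minimum FPKM of 1, 16 of 26 genes passed in limma, 15 lower (8.77% of all genes) and 1 higher (2.0%). The pair of day 0 itself held 0 genes past 2-fold among 31 in either direction (1.31% and 2.21% of all genes). At day 4 the same comparison gave 5 of 29 genes 2-fold lower (3.88% of all genes) and 0 higher (1.4%), with a median log2 ratio of -0.457 beside -0.0685, and in limma 0 passed (smallest adjusted p = 0.424). At an unadjusted p under 0.05, 0 were higher (3.17% of all genes) and 14 lower (8.13%) at day 4. The 5 genes past 2-fold were Mmp3, Adamts1, Adamts2, Adamts5 and Timp3.

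**Figure D3:**
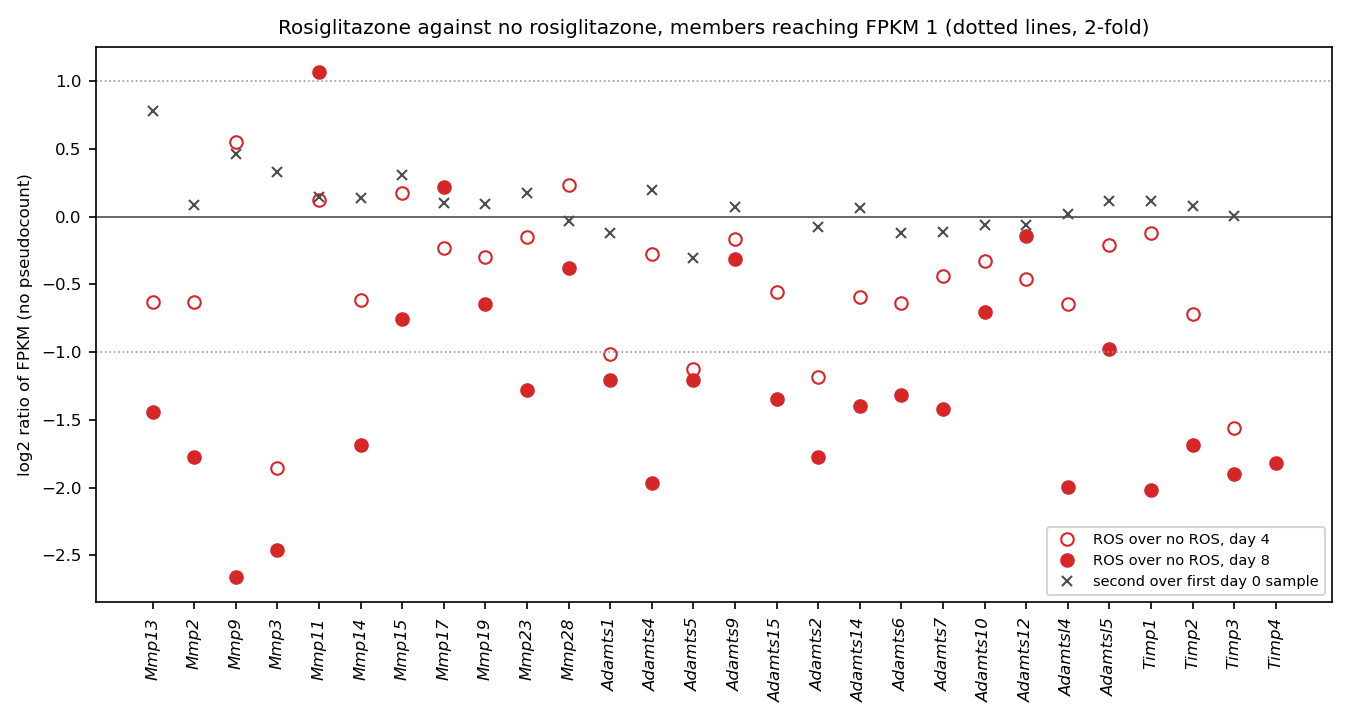
Log2 ratio of FPKM with ROS over without ROS at day 4 (open) and day 8 (filled), and of the second over the first sample of day 0 (crosses), for the members that reached an FPKM of 1, with dotted lines at 2-fold. At day 8 most points lie under the lower line and Mmp11 lies above the upper one, while the crosses stay within 2-fold.

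The ROS comparisons at day 4 and day 8 share no sample, and 26 of 31 genes were lower with ROS on both days (48.1% of all genes were), 1 was higher on both (18.4%), and 4 changed sides. The difference between both days was tested as an interaction, and 0 genes passed in limma (smallest adjusted p = 0.241), with 1 higher (4.52% of all genes) and 16 lower (13.2%) at an unadjusted p under 0.05. Thus a stronger effect at day 8 was not established gene by gene. Mmp3 had the lowest ratio at day 4 and the next lowest to Mmp9 among the genes reaching 1 at day 8, 3.61-fold and 5.52-fold lower with ROS. Mmp9 was 6.33-fold lower at day 8 and 1.46 times the culture without ROS at day 4. Timp3 was 2.95-fold lower at day 4 and 3.74-fold lower at day 8. Timp1 was nearly equal in both cultures at day 4 (1.09-fold lower with ROS) and 4.05-fold lower at day 8, where Timp2 was 3.21-fold, Mmp2 3.41-fold, Mmp14 3.22-fold, Adamts2 3.43-fold, Adamts4 3.9-fold and Adamtsl4 3.98-fold lower. The genes that stayed inside 2-fold at day 8 included several that had risen with differentiation, with Adamts12 1.1-fold, Adamts9 1.24-fold, Mmp28 1.3-fold and Mmp19 1.57-fold lower with ROS, whereas Adamts15 was 2.54-fold lower. Mmp11 was 2.09 times as high with ROS at day 8 and 1.09 times at day 4.

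Other genes moved with this comparison. Of the 7 preadipocyte or fibroblast markers, 4 (Dlk1, Thy1, Cd34 and Ly6a) were at least 2-fold lower with ROS at day 8, and their summed FPKM was 572 without and 140 with ROS. Of the 8 adipocyte markers, 3 (Fabp4, Cidec and Lipe) were at least 2-fold higher, Lep was lower, at 0.252 without and 0 with ROS, and Pparg was 1.66-fold lower. Their sum of 9450 without and 35700 with ROS was mostly Fabp4, at 7631 and 31402. The 6 beige markers summed to 92.8 and 386, all 6 of them being at least 2-fold higher with ROS. The part of these differences in the values of the proteases and inhibitors was not tested. At day 4 the preadipocyte markers summed to 249 without and 192 with ROS.

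Genes that act on the same system were looked at by list. Of 19 activators and inhibitors of the pericellular proteases, 12 reached 0.1 in the time course, and against day 0 in limma 3 rose and 6 fell (28.5% and 29.3% of all genes did). Those that fell include Plau (urokinase, from 29.6 and 31.9 to between 3.24 and 12.4) and its receptor Plaur (from 15 and 16 to between 0.786 and 1.75). Serpine2, an inhibitor of urokinase and thrombin, was 7.92 and 6.84 at day 0 and between 8.36 and 18.0 later. Of 11 ADAM genes, 9 reached 0.1, of which 1 rose and 3 fell, against the same 28.5% and 29.3%. Adam12, a disintegrin protease of mesenchymal cells, went from 3.83 and 3.71 to between 31.5 and 54.4, and Adam8 from 9.0 and 9.39 to between 0.232 and 0.683. Of 23 matrix substrates, 21 reached 0.1, of which 8 rose and 9 fell, again against 28.5% and 29.3%. Among them, Col1a1, a chain of the fibrillar collagen that MMP14 cuts, went from 412 and 420 to between 47.1 and 170, and Fn1 (fibronectin) from 460 and 474 to between 28.6 and 96.4, while Col4a1 of the basement membrane went from 59.7 and 62.6 to between 177 and 242. With ROS at day 8, 5 of 11 activators and inhibitors, 4 of 9 ADAM genes and 12 of 21 substrates were at least 2-fold lower (15.2% of all genes were), and 0 of each list were higher (3.4%).

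In the transduced cells, the knock-down that the paper reports by immunoblot and qPCR could not be read from the FPKM of the targeted gene. Kdm3a, the mouse gene of JMJD1A, was at 20.4 and 17.9 FPKM in the WT samples (A, then B), at 13 in S265A, 23.0 in S265D and 28.5 in S265D-H1120Y, where untransduced cells at day 8 with ROS had 21.1. Whether reads of the human transgene entered these values was not tested. The WT samples differed past 2-fold from each other in more of the protease and inhibitor genes than S265A or S265D did from either of them. WT B was at least 2-fold higher than WT A in 18 of 30 genes (60.0%, against 15.1% of 13796 genes) and lower in 5 (10.6% of all genes), with a median log2 ratio of 1.07 beside 0.0537 for all genes. Timp2 was 17.6 in WT A and 65.0 in WT B, Timp3 4.58 and 14.3, Mmp2 17.6 and 36.3, Mmp14 13.1 and 27.8, and Mmp11 9.13 and 38.6. On the other side Adamts9 was 10.3 in WT A and 0.619 in WT B, Adamts15 5.11 and 1.43, and Timp4 1.5 and 0.267. Preadipocyte markers summed to 148 in WT A and 570 in WT B, beige markers to 325 and 109, and adipocyte markers to 15300 and 29000. The adipocyte sum was mostly Fabp4, at 12393 in WT A and 26902 in WT B. Adipoq, Plin1, Cidec, Lipe, Slc2a4 and Lep were lower in WT B, and Pparg was 89.8 in WT A and 95.6 in WT B. The part of all these markers in the differences between the WT samples was not tested. The labels give both as replicates of 1 group, and do not say whether either was cultured together with any of the mutants, so the mutants are also given against each WT sample.

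Against the mean of WT, 3 of 30 genes were at least 2-fold higher and 4 lower in S265A (3.09% and 6.65% of all genes), and 3 higher and 3 lower in S265D (3.53% and 4.88%). In limma, where both WT samples supply the error, 0 genes passed in either comparison (smallest adjusted p = 1.0), and at an unadjusted p under 0.05 there were 0 for S265A and 1, higher, for S265D (0.437% of all genes). The counts depended on which WT sample was used. Against WT A alone 13 genes were higher (10.0% of all genes) and 4 lower (7.73%) in S265A, and 12 (12.1%) and 5 (7.22%) in S265D. Against WT B alone these were 4 (4.83%) and 4 (6.73%) in S265A, and 2 (4.84%) and 3 (3.66%) in S265D. Genes 2-fold outside both WT samples were fewer, with 2 higher in S265A (Mmp3 and Mmp15, 1.64% of all genes) and 1 higher in S265D (Mmp3, 1.73% of all genes), and 0 lower in either (2.08% and 1.63%). In S265D-H1120Y 2 were higher (Mmp3 and Adamtsl5, 3.15% of all genes) and 1 lower (Timp4, 3.75%).

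**Figure D4:**
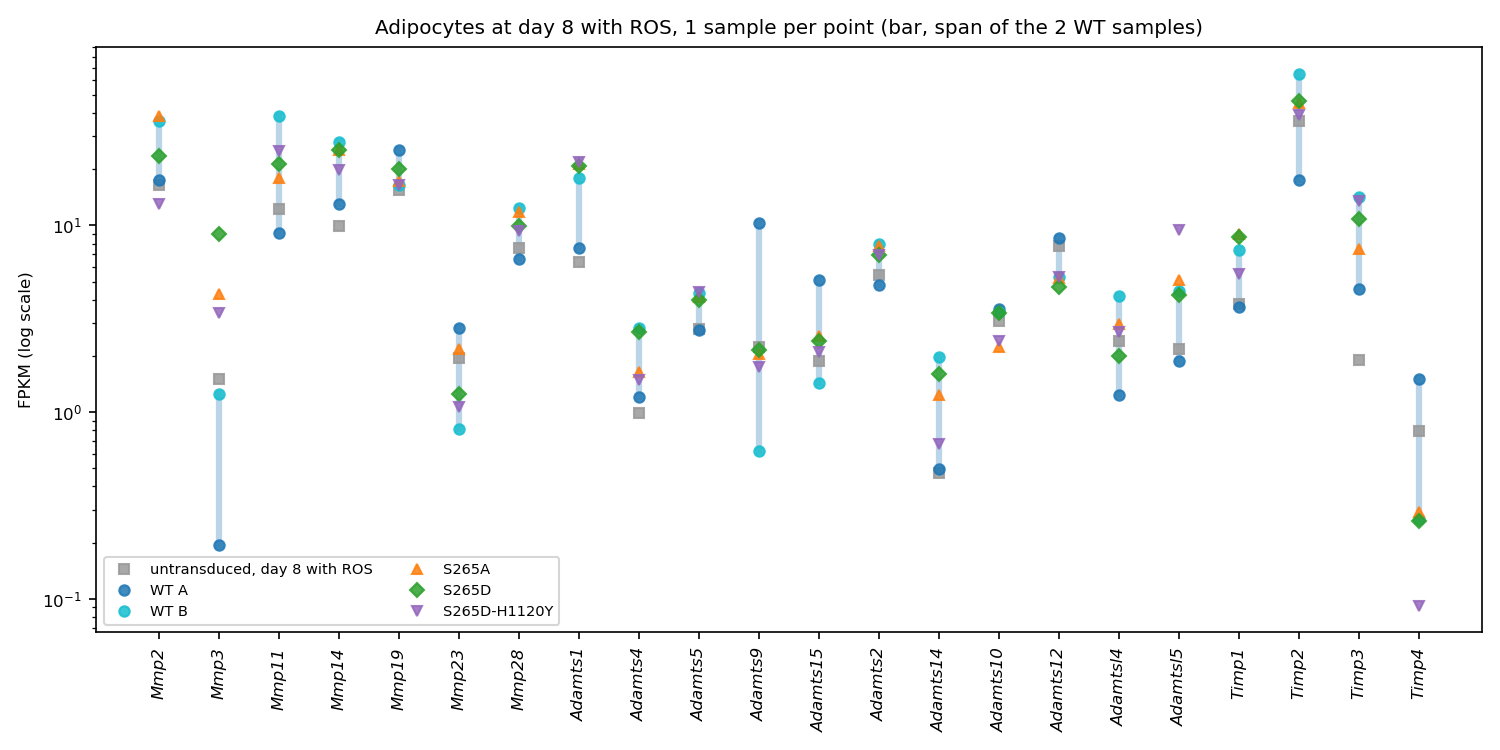
FPKM (log axis) at day 8 with ROS for the 4 Timp genes and the other members that reached 5, in untransduced cells and in the 5 transduced samples, with 1 sample per point and a bar for the span of the 2 WT samples. The mutants lie inside or near the WT span for most genes, and for Mmp3 all 3 mutants lie above it.

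Among these genes, Mmp3 alone was 2-fold outside both WT samples in all 3 mutants, and it was singled out after its values were seen. The share of all genes that do so was not computed. Mmp3 was at 0.193 and 1.25 FPKM in WT A and WT B, at 4.31 in S265A, 8.95 in S265D and 3.41 in S265D-H1120Y, beside 1.51 in untransduced cells with ROS. All 3 mutants were more than 2-fold above both WT samples, the phosphorylation-defective S265A and the phosphomimetic S265D alike. The level of S265D was 12.4 times the mean of WT, with a log2 difference of 3.85 ± 1.141 SE in limma (adjusted p = 1.0, unadjusted p = 0.0392). Mmp13, its neighbour and a collagenase, was at 0.060 and 1.35 FPKM in WT A and WT B, at 0.695 in S265A, 1.64 in S265D and 0.495 in S265D-H1120Y, so its WT samples alone spanned most of that range. Adamts9 was 2.04 in S265A, 2.14 in S265D and 1.75 in S265D-H1120Y, all between the WT samples, and its direction against WT turned with the WT sample used. Timp4 was 0.292 in S265A, 0.262 in S265D and 0.092 in S265D-H1120Y, of which S265A and S265D were close to WT B and S265D-H1120Y was below both WT samples.

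S265D-H1120Y was compared with S265D, a pair of single samples that differ in the catalytic site. Of 30 genes, 1 was at least 2-fold higher (5.11% of all genes) and 4 lower (7.89%), with a median log2 ratio of -0.265 beside -0.051, and in limma 0 passed (smallest adjusted p = 1.0, with 0 at an unadjusted p under 0.05). Adamtsl5 was 4.25 in S265D and 9.46 in S265D-H1120Y, above both WT samples (1.89 and 4.46). The lower genes were Mmp3, Mmp13, Adamts14 (1.61 and 0.672, within the WT span of 0.496 to 1.97) and Timp4. The abundant inhibitors stayed inside 2-fold, with Timp2 at 46.3 and 39.2, Timp1 at 8.65 and 5.51 and Timp3 at 10.8 and 13.5.

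Compared with untransduced cells at day 8 with ROS, all 5 transduced samples were higher in 9 of 30 genes (29.1% of all genes were) and lower in 0 (22.9%). Timp3 was 1.90 in untransduced cells and from 4.58 to 14.3 in the transduced samples, and Mmp14 was 9.88 and from 13.1 to 27.8. The labels give no batch for either set, so transduction and any other difference between the sets cannot be told apart. The low TIMP to MMP ratio of the differentiated cells was found here too, with a TIMP sum from 0.355 to 0.644 times the MMP sum in the 5 samples.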

How the data were processed

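The authors sequenced TruSeq libraries on a HiSeq 2500, aligned the reads to UCSC transcripts and to mm9 with Burrows-Wheeler aligner, and deposited FPKM per transcript and strand. The deposited files also hold a signal column of mapped bases per transcript, which is not a read count and was used only for depth, and the log10 and log2 of the FPKM, which were not used. Depth was from 3.1 to 5.29 Gb of mapped bases, and low FPKM values are less precise in the shallower samples. Sense rows of coding genes with the representative transcript of each symbol were used. Genes needed an FPKM of 0.1 in 1 of the samples compared. Ratios of mean FPKM, without a pseudocount, were called at 2 and 0.5. Beside them limma (version 3.58.1, R 4.3.3) was run on log2(FPKM + 0.1), which understates changes of low genes. The time course and the transduced samples were fitted apart, two-sided, each with 1 residual degree of freedom, and p-values were adjusted over all genes by the Benjamini-Hochberg method at 0.05. The limma script was tested on simulated data.

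Groups were taken from the sample labels. The members, gene lists and comparisons were chosen with earlier results of these data known. The Timp genes and members reaching an FPKM of 1 were named, with values in every sample for members reaching 5 and past 2-fold and for those of highest FPKM. Other members were given by counts and ranges, with exceptions made after their values were seen. Those of the chromosome 9 cluster were named for their promoters, Adamts13 for its other transcripts and Mmp24 for its opposite strand. Promoters were taken from RefSeq (GRCm38.p6), and gene positions from the files (mm9). Alternatives changed the minimum, the pseudocount, the transcript, the scaling, the limma fit and the samples left out. The ratios and counts were computed in pandas 2.3.3 and numpy 2.4.6 under Python 3.11.15, and plots drawn in matplotlib 3.10.9.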

Additional observations from a re-analysis of the deposited data

Results flagged for a closer look

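Reads on the strand opposite to Timp4 reached an FPKM of 4.53 at day 8 without ROS, above the 2.78 of Timp4 itself in that sample, while they were listed at 0 in both samples of day 0. The antisense strand is outside the comparisons made here, and it stood out because it was above its level in the preadipocyte samples. With ROS at day 8 it was 1.23, and at day 4 it was 0.360 without and 0.221 with ROS. For Mmp14, by contrast, the opposite strand reached at most 0.265 where the sense strand reached 111.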

How the results depend on the processing

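No paired analysis was made. Only the WT samples carry replicate letters, and the labels tie neither of them to a mutant. The ROS labels of the 2 samples of day 0 could tie each to 1 of the cultures, but these samples were used as a pair. With ratios of FPKM + 1, the counts past 2-fold (higher, lower) were 5 higher against day 0, 1 and 1 for day 8 against day 4, 0 and 13 for ROS at day 8, 3 lower for ROS at day 4, 1 and 1 for S265A, 1 and 1 for S265D, and 0 and 1 for S265D-H1120Y against S265D. A minimum FPKM of 1 gave 2 higher at day 8 against day 4, and in limma 6 for that comparison and 16 for ROS at day 8. No minimum gave 8 lower for day 8 against day 4, 11 lower for ROS at day 4, 11 lower in S265A, 5 higher and 7 lower in S265D, and 5 and 7 for S265D-H1120Y. Shares of all genes are given above for some of these settings. Where none is given, as without a minimum, the counts show only how calls move with the setting. Limma on all 11 samples gave 12 members changed against day 0 in place of 26, and 0 to 0 without either sample of day 0. Leaving out a WT sample gave 4 to 13 higher and 4 to 4 lower in S265A, and 2 to 12 higher and 3 to 5 lower in S265D, with 0 to 0 in limma. Leaving out a sample of day 0 gave 11 to 13 higher and 14 to 15 lower. The log2 ratio of Adamts9 went from -2.33 (without WT B) to 1.72 (without WT A) in S265A, and from -2.26 to 1.79 in S265D. With the ROS cultures alone, a setting chosen after seeing the data, that of Mmp3 against day 0 turned to -0.33. The causes were not tested. Most conditions had 1 sample, and the mapped bases give no count error.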

Other observations

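The opposite strand of Mmp24, a membrane-type MMP whose own strand stayed under an FPKM of 0.1 in all 11 samples, was covered in every sample, with an FPKM from 1.69 to 5.22. The opposite strand of Mmp19 was 2.20 and 2.27 in both samples of day 0 and from 0.544 to 1.13 in the other 9 samples. The coding gene 1110012D08Rik overlaps Mmp19 on that strand, and its part in these values was not tested. Basigin (Bsg), which is known as an inducer of MMPs in neighbouring cells, had an FPKM of 474 and 518 at day 0, 361 without and 375 with ROS at day 4, 649 without and 927 with ROS at day 8 (adjusted p = 0.307 in limma over days 4 and 8 against day 0), and from 1639 to 2433 in the transduced samples. The hyaluronan-binding proteoglycan Vcan, a substrate of several ADAMTS proteases, was 12.4 and 8.23 at day 0, 27.4 without and 13.3 with ROS at day 4, and 4.58 without and 1.61 with ROS at day 8.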
